A study of Mus musculus with 9 samples.

Results

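A set of 9 transcription factor genes of stratified squamous epithelium was examined in the esophagus of newborn mice: Sox2, Pax9, Klf4, Klf5, Grhl1, Grhl3, Tfap2a, Bnc1 and Ovol1. They were chosen by name among the non-control probes of the arrays. By the gene name in the files 7 of the 9 were found, on 10 probes, and Tfap2a was added through the accession of its 2 probes, which carry the older name Tcfap2a. Grhl3 was not analysed here. The 8 measured members stand among 22648 gene names that were tested. Their probes lie in mm9 at chr3:34550773-34550832 (Sox2), chr12:57811169-57811228 (Pax9), chr4:55540833-55540892 (Klf4), chr12:25301994-25302053 (Grhl1), chr13:40812207-40812266 (Tfap2a), chr7:89111978-89112037 (Bnc1) and chr19:5549209-5549268 (Ovol1), and the Klf5 probes are placed below. No annotation of that build was used, so exons are not named.

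Each of 9 Agilent arrays with 2 colours read total RNA of 1 esophagus sample, labelled in Cy5, against a universal reference RNA from 11 mouse cell lines in Cy3. The groups were p63 knockout mice carrying a Villin-Cdx2 transgene (n = 2, numbered among 3 in the labels), p63 knockout mice (n = 3) and wild type mice (n = 4), all on the C57BL/6J background and at postnatal day 0. Both knockout groups lack p63, and the Villin-Cdx2 name points to the promoter of the intestinal gene villin, which drives expression in intestinal epithelium. The labels call the cells epithelium while RNA was taken from esophageal tissue, and the samples of a group are called biological replicates. Slide, scan and genotype coincide, with 1 slide for each genotype, so their effects cannot be told apart here. The source of wild type replicate 4 is labelled as p63-/-, against its title and genotype, so each member call is also given without it.

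Stratified squamous epithelium renews itself from a basal layer, whose cells leave the cell cycle and differentiate as they move outward. The gene Trp63 encodes p63, a transcription factor required to form this epithelium, and Sox2 and Pax9 are needed for normal development of the esophageal lining. Klf4 and Klf5 are zinc finger factors of the Krüppel-like family. Klf5 is found in proliferating basal cells and Klf4 in differentiating ones. Grhl1 is a Grainyhead factor that controls genes of the desmosome and the epithelial barrier. Tfap2a encodes AP-2 alpha, Bnc1 a basonuclin of basal keratinocytes and Ovol1 a zinc finger repressor that restrains proliferation of epidermal progenitors.

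Promoters from RefSeq (build GRCm38.p6) are shown for Pax9, Sox2 and Klf4, the members with a promoter in that table whose difference from wild type passed in at least 1 of the background fits below. The table held promoters of 7 of the 9 genes, and none for Klf5 and Ovol1 was matched. Each runs 5′ to 3′ from 250 bases before the start of the gene to 50 bases after it, and capitals mark a motif match.
Pax9, chr12:56695221-56695520, plus strand: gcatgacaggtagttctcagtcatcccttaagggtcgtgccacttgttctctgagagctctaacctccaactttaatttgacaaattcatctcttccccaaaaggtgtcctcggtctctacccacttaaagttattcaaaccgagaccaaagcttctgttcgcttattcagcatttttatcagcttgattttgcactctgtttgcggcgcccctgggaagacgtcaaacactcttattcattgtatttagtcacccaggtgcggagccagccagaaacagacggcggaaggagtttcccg
Sox2, chr3:34649745-34650044, plus strand: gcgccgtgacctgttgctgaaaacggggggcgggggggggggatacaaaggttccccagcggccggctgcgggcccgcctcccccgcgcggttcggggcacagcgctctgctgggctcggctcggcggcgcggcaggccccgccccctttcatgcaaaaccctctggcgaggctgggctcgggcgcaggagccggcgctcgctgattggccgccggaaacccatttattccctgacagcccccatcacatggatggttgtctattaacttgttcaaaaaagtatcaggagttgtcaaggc
Klf4, chr4:55532426-55532725, minus strand: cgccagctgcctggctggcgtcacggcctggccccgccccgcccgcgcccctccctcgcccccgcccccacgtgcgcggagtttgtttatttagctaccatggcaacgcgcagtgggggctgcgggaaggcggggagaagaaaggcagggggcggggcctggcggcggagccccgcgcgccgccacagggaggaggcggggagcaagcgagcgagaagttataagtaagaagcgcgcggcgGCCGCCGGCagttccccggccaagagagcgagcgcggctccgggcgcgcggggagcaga
Motifs were searched on both strands: GGGNGTGG for the Krüppel-like family, GCCNNNGGC for AP-2, AACCNGTT for Grainyhead and AACAATG for SOX, with the p53 family half-site by its name. The AP-2 motif was found once in the Klf4 promoter and once in the first Grhl1 promoter. It was also found in the Bnc1 promoter, and 16.6% of 32851 promoters of the same length held it. The Krüppel-like motif lay in the Bnc1 and Grhl3 promoters, against 17.6% of all promoters. Grainyhead, SOX and p53 family letters were in none of the members' promoters, and 2.09%, 3.78% and 8.36% of all promoters held them. A match in these windows is a description of letters and not of binding.

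The tissue label was checked first. The log2 of the summed sample signal of 7 keratin and adhesion genes of stratified squamous epithelium lay at 15.43 to 15.77 in knockouts with Cdx2 and 15.46 to 15.98 in knockouts, against 18.15 to 18.51 in wild type. Krt5, a basal keratin, had a log2 sample signal of 7.39 and 12.01 in knockouts with Cdx2 and 7.92 to 9.37 in knockouts, against 15.02 to 15.43 in wild type, replicate 4 included. Cdh1, which encodes the adhesion protein of epithelia in general, was at 13.09 and 13.68 in knockouts with Cdx2 and 13.17 to 13.71 in knockouts, against 11.84 to 13.20 in wild type. Epcam, another epithelial adhesion gene, was at 11.74 and 11.75 in knockouts with Cdx2 and 11.26 to 11.57 in knockouts, against 11.48 to 12.04 in wild type. The 15 genes of the general epithelium list were all well above background on every array, and summed to 17.31 to 18.19 in knockouts with Cdx2 and 17.36 to 17.79 in knockouts, against 17.77 to 18.80 in wild type. Their median differences from wild type were -0.28 with Cdx2 and -0.38 without it. Smooth muscle genes summed to 17.82 to 18.18 and 18.07 to 18.18 in the 2 knockout groups, against 18.39 to 19.23 in wild type. Skeletal muscle genes summed to 18.64 to 20.16 in knockouts with Cdx2 and 19.51 to 20.55 in knockouts, against 18.44 to 20.51 in wild type. Blood and immune genes summed to 16.26 to 17.62 in knockouts with Cdx2 and 17.59 to 18.98 in knockouts, against 17.16 to 17.91 in wild type, with median differences from wild type of 0.55 with Cdx2 and 0.62 without it, and 0 of the 10 measured genes passed in either comparison. Ptprc, a leukocyte gene, was at 9.13 and 12.39 in knockouts with Cdx2 and 10.47 to 10.79 in knockouts, against 9.69 to 9.90 in wild type. The part of these cell types in the results below was not tested, and in whole tissue fewer cells of a type and less RNA per cell cannot be told apart.

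The probe of Trp63 near the 3′ end of its transcript still gave signal well above background on every knockout array. Its log2 sample signal was 11.25 and 11.12 in knockouts with Cdx2 and 10.75 to 10.82 in knockouts, against 11.60 to 12.30 in wild type. It fell by 1.18 in knockouts against wild type (SE 0.16, adjusted p = 0.00996), while its log ratio differed by -0.97 (adjusted p = 0.0747). The labels do not say which part of the gene was deleted, so this probe may lie outside it. Another Trp63 probe differed by 0.90 as a log ratio between knockouts with Cdx2 and wild type (adjusted p = 0.0462 over all probes), in the opposite direction. The Cdx2 probe gave no signal well above background on any array, with log2 sample signals of 6.09 and 6.55 in knockouts labelled with Cdx2 and 6.18 to 6.27 in knockouts, against 6.13 to 6.50 in wild type. The array values therefore do not show the transgene in the group that carries it by its label, and whether the probe lies in the transgene is not given in the sources used here. The words knockouts with Cdx2 stand for that label throughout.

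On wild type replicate 3 a few spots had local backgrounds of up to 7250 units in the reference and 5420 in the sample channel. The fitted background mean of that array was -235 in the reference channel, against 3.02 to 8.81 on the other arrays. This was noticed after the members' values had been read. The background model was then also fitted without spots flagged by the scanner software, called unflagged spots here, and each member call that this changes is given below under both fits.

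Klf5 was the member that passed in both channels and against wild type in both knockout groups. Its log2 ratio of sample over reference was 0.77 and 1.01 in knockouts with Cdx2 and 1.18, 1.15 and 1.28 in knockouts, against 1.75, 1.78, 1.77 and 1.90 in wild type. Every knockout array was lower than the lowest wild type array. The 2 knockout groups, of 2 and 3 arrays, did not overlap either, but the share of all genes for which this held is not given here. Klf5 fell in knockouts with Cdx2 by 0.91 on the log2 ratio scale, 1.87-fold lower than in wild type (SE 0.09, adjusted p = 0.00777), where 0.971% of all genes fell. In knockouts without Cdx2 it was 1.51-fold lower than in wild type, a log2 difference of -0.59 (SE 0.08, adjusted p = 0.0306). Between the knockouts with and without Cdx2 the difference was -0.31 (95% interval -0.54 to -0.09), which did not pass over all genes (adjusted p = 0.369).

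**Figure D1:**
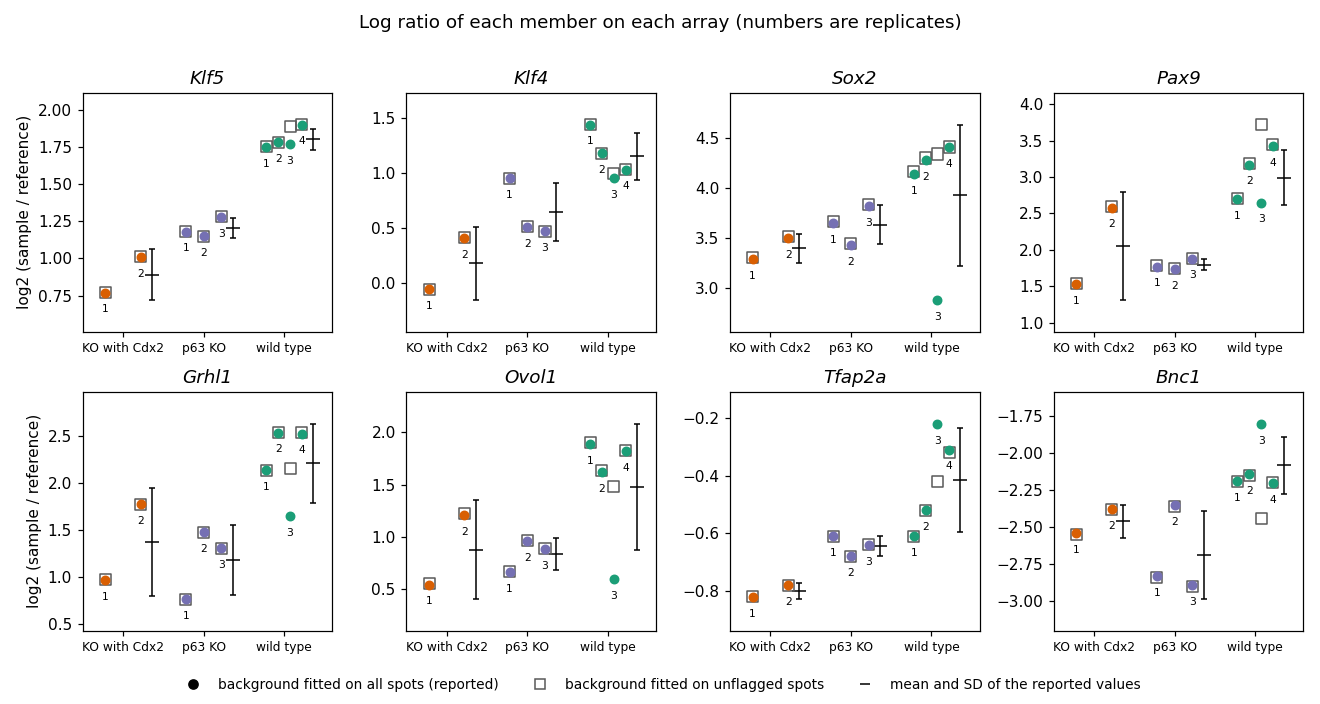
The log2 ratio of sample over reference is plotted for the 8 measured members on each array, as filled points with the replicate number, for the knockouts with Cdx2 (left), knockouts (middle) and wild type (right). Bars are the mean and SD, and open squares show the background fit without flagged spots. For Klf5 all wild type arrays, at 1.75 to 1.90, lie above all knockout arrays, while Sox2 on wild type replicate 3 is at 2.88 by one fit and at 4.34 by the other.

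In the sample channel alone the log2 signal of Klf5 was 12.12 and 12.48 in knockouts with Cdx2 and 12.59, 12.71 and 12.81 in knockouts, against 13.51, 13.35, 13.51 and 13.57 in wild type. The groups again did not overlap, with the same limit for the 2 knockout groups. Klf5 fell by 1.19 on the log2 sample scale in knockouts with Cdx2 (2.27-fold, SE 0.12, adjusted p = 0.00366) and by 0.78 in knockouts (1.72-fold, SE 0.11, adjusted p = 0.0111), each against wild type. Of the 9 fits that each left out 1 array, 9 kept the call for the knockouts with Cdx2 in each channel. For the knockouts against wild type 3 kept it as a log ratio, and 7 kept it in the sample channel. These counts include the fits that left out an array of the knockouts with Cdx2, which is not in this comparison. Of the arrays compared, only wild type replicate 3 could be left out with the log ratio call kept. The log ratio call was lost without any 1 of wild type replicates 1, 2 and 4 or of the knockout replicates (adjusted p = 0.0778 to 0.190), and the sample channel call without knockout replicate 1 or 2 (adjusted p = 0.0506 and 0.0601). It was also lost in both channels when all spots flagged by the scanner software were left out, with adjusted p = 0.111 as a log ratio and 0.0791 in the sample channel.

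Without wild type replicate 4, Klf5 differed from wild type by -0.87 in knockouts with Cdx2 (adjusted p = 0.0323) and by -0.56 in knockouts (adjusted p = 0.104) as a log ratio. In the sample channel these values were -1.16 (adjusted p = 0.0182) and -0.75 (adjusted p = 0.0475). The reference channel at this probe was also lower in both knockout groups than in wild type, by -0.28 and -0.19, neither of which passed (adjusted p = 0.279 and 0.0869). Over all genes 0.234% and 13.2% passed in that channel.

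The 2 probes of Klf5 gave different results. They are assigned to different transcript records. The probe used above has ends 9733 bases apart in the genome (mm9 chr14:99702656-99712388), more than its length. The second lies between those ends, at chr14:99704137-99704196, and is dimmer. A transcript that matches the first probe end to end skips bases between its ends, so the 2 probes may not read the same transcript. This was not tested. The log ratios below are those of the second probe. Its log2 ratio was 1.22 and 1.29 in knockouts with Cdx2 and 1.54, 0.90 and -0.01 in knockouts, against 1.53, 1.26, 0.08 and 0.40 in wild type. The groups overlapped on this probe, and the difference of knockouts from wild type was -0.01 (SE 0.43, adjusted p = 0.997). The difference of knockouts with Cdx2 from wild type was 0.43 (SE 0.49, adjusted p = 0.695), opposite in sign to the -0.91 of the brighter probe. The mean of the 2 probes gave no call for Klf5, at -0.24 in knockouts with Cdx2 (adjusted p = 0.671) and -0.30 in knockouts (adjusted p = 0.785).

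Klf4 lay in the same order of groups. Its log2 ratio was -0.06 and 0.41 in knockouts with Cdx2 and 0.95, 0.51 and 0.47 in knockouts, against 1.44, 1.18, 0.95 and 1.03 in wild type. Knockout replicate 1 and wild type replicate 3 were both at 0.95 to 2 decimals. The difference of knockouts with Cdx2 from wild type was -0.98 (SE 0.20, adjusted p = 0.0558), just outside the threshold of 0.05. It was -0.99 and inside it (adjusted p = 0.0333) with the background fitted on unflagged spots. Its sample channel differed by -0.97, with an adjusted p of 0.0559 and 0.0491 under the same 2 fits. Between knockouts and wild type the log ratio differed by -0.51 (SE 0.18, adjusted p = 0.492). The log2 sample signal of Klf4 was 14.31 and 14.84 in knockouts with Cdx2 and 15.15, 14.83 and 14.82 in knockouts, against 15.86, 15.64, 15.32 and 15.34 in wild type, and no knockout array reached the wild type range. The Klf4 spot carried a flag, on itself or its local background, on 5 of the 9 arrays, and these values were used here. They were wild type replicates 1, 2 and 4 and both arrays of the knockouts with Cdx2. With every flagged spot left out Klf4 therefore has no value in knockouts with Cdx2, and that comparison cannot be made.

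The log ratio of Sox2 depended on the background step. Its log2 ratio was 3.29 and 3.50 in knockouts with Cdx2 and 3.65, 3.43 and 3.82 in knockouts, against 4.14, 4.28, 2.88 and 4.41 in wild type. Wild type replicate 3 was the lowest of all arrays, and the other 3 wild type arrays were the highest. The differences from wild type were -0.54 in knockouts with Cdx2 (SE 0.39, adjusted p = 0.514) and -0.30 in knockouts (SE 0.34, adjusted p = 0.858). With the background fitted on unflagged spots replicate 3 read 4.34, and the differences were -0.90 (adjusted p = 0.0104) and -0.66 (adjusted p = 0.0367). With every flagged spot left out they were -0.88 (adjusted p = 0.0458) and -0.64 (adjusted p = 0.213). Without wild type replicate 3 they were -0.89 (adjusted p = 0.0344) and -0.64 (adjusted p = 0.116). The authors' deposited log ratios gave -0.44 (adjusted p = 0.120) and -0.42 (adjusted p = 0.281).

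The sample channel of Sox2 was less affected. Its log2 signal was 10.06 and 10.66 in knockouts with Cdx2 and 10.44, 10.39 and 11.13 in knockouts, against 11.41, 11.52, 11.30 and 11.66 in wild type. No knockout array reached the wild type range. The differences from wild type of -1.11 in knockouts with Cdx2 (SE 0.24, adjusted p = 0.0574) and -0.82 in knockouts (SE 0.21, adjusted p = 0.116) did not pass. With unflagged spots the first passed, at -1.20 (adjusted p = 0.0434), and with every flagged spot left out it did not (adjusted p = 0.112). The reference spots of Sox2 were dim, at 33.6 to 74.0 net intensity units over the 9 arrays, near the offset of 50 units that the correction adds.

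**Figure D2:**
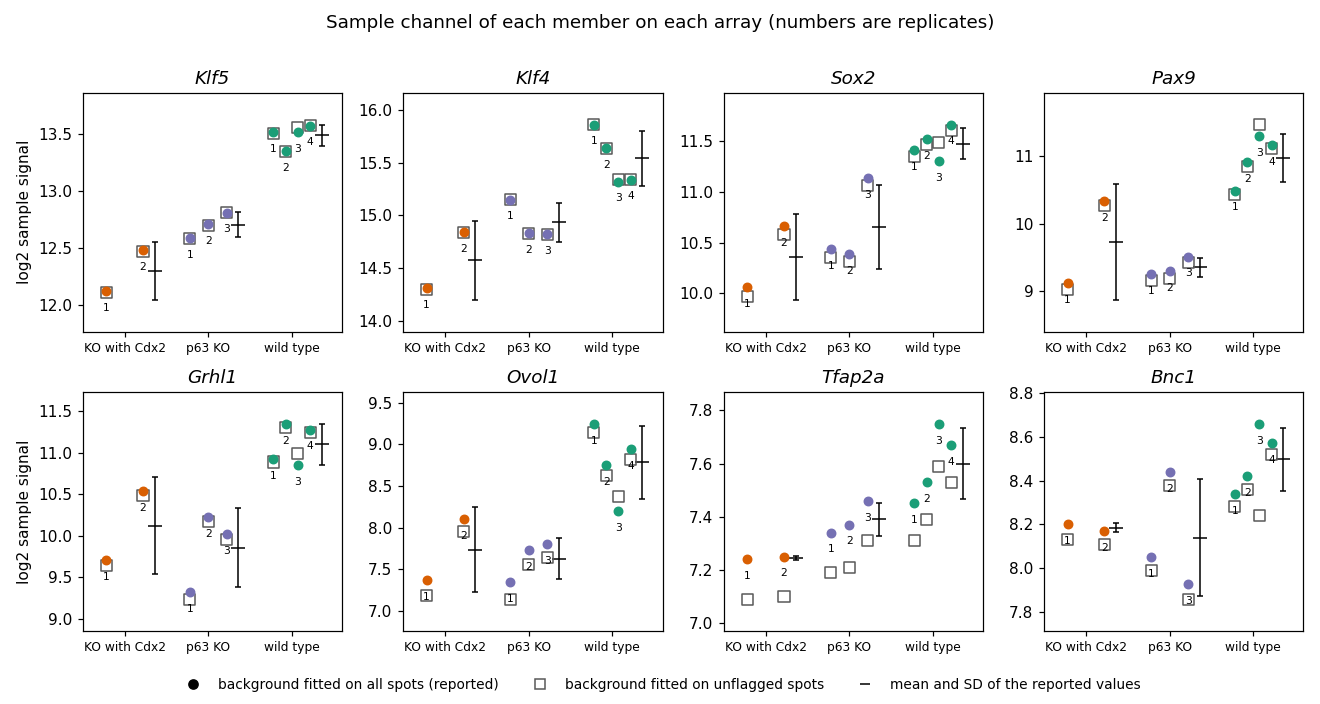
The log2 sample signal after normalization is plotted for the 8 measured members on each array, in the layout of the log ratio plot. The Pax9 arrays of the knockouts, at 9.25 to 9.51, lie below all wild type arrays, at 10.49 to 11.30, and replicate 2 of the knockouts with Cdx2 lies between them at 10.34.

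Pax9, a paired box factor of pharyngeal and oral development, differed more in size and varied more. Its log2 sample signal was 9.12 and 10.34 in knockouts with Cdx2 and 9.25, 9.29 and 9.51 in knockouts, against 10.49, 10.91, 11.30 and 11.17 in wild type. The 3 knockout arrays lay close together and the 2 with Cdx2 far apart. Pax9 fell by 1.62 in knockouts against wild type (3.07-fold, SE 0.30, adjusted p = 0.0376). The difference of knockouts with Cdx2 from wild type was -1.24 (SE 0.34, adjusted p = 0.0978), and without replicate 2 of that group it was -1.85 (adjusted p = 0.0299). The knockout call was kept in 3 of 9 fits that left out 1 array. It was lost without wild type replicate 2, 3 or 4 (adjusted p = 0.103, 0.0902 and 0.115) and without any 1 knockout array (adjusted p = 0.110 to 0.151).

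As a log ratio Pax9 was 1.53 and 2.58 in knockouts with Cdx2 and 1.77, 1.74 and 1.88 in knockouts, against 2.70, 3.17, 2.65 and 3.43 in wild type. The knockout groups stayed below wild type without overlap. The differences of -0.93 with Cdx2 (adjusted p = 0.166) and -1.19 without it (adjusted p = 0.214) did not pass. The reference channel at this probe was also lower than in wild type, by -0.31 with Cdx2 (adjusted p = 0.697) and -0.43 without it (adjusted p = 0.25). Neither passed. Wild type replicate 3 stood apart in that channel, at 8.65 against 7.74 to 7.79 on the other wild type arrays. With the background fitted on unflagged spots its Pax9 log ratio read 3.72.

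Grhl1 had a log2 sample signal of 9.71 and 10.54 in knockouts with Cdx2 and 9.32, 10.23 and 10.02 in knockouts, against 10.93, 11.35, 10.85 and 11.28 in wild type. All knockout arrays lay below wild type. The differences from wild type of -0.98 (SE 0.31, adjusted p = 0.132) with Cdx2 and -1.25 (SE 0.27, adjusted p = 0.074) without it did not pass. As a log ratio it was 0.97 and 1.78 in knockouts with Cdx2 and 0.77, 1.48 and 1.31 in knockouts, against 2.14, 2.54, 1.65 and 2.53 in wild type. Replicate 2 with Cdx2 lay above wild type replicate 3. That wild type array read 2.16 with the background fitted on unflagged spots, and no knockout array then reached the wild type range. The differences of -0.84 (adjusted p = 0.227) with Cdx2 and -1.03 (adjusted p = 0.352) without it, from the fit on all spots, did not pass. The second Grhl1 probe differed by -0.84 between knockouts and wild type as a log ratio (adjusted p = 0.544 over all probes). Its sample signal differed by -0.78 (adjusted p = 0.182). With Cdx2 these differences were -0.68 (adjusted p = 0.33) and -0.82 (adjusted p = 0.156), and none passed.

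Ovol1 had a log2 sample signal of 7.37 and 8.10 in knockouts with Cdx2 and 7.34, 7.73 and 7.80 in knockouts, against 9.25, 8.75, 8.20 and 8.94 in wild type. Every knockout array was below every wild type array, while the 2 knockout groups overlapped each other. The difference of knockouts from wild type was -1.16 (SE 0.27, adjusted p = 0.0876). It was -1.29 and passed with unflagged spots (adjusted p = 0.0384), -1.88 from the scanner software's processed signals (adjusted p = 0.0316) and -1.36 without wild type replicate 3 (adjusted p = 0.0467). The reference channel at this probe was itself lower in knockouts than in wild type, by -0.51 (adjusted p = 0.0327), although the reference RNA was the same on all arrays. In that channel 13.2% of all genes passed between these groups. As a log ratio Ovol1 was 0.54 and 1.21 in knockouts with Cdx2 and 0.66 to 0.96 in knockouts, against 0.59 to 1.89 in wild type. The groups overlapped through wild type replicate 3, at 0.59. With the background fitted on unflagged spots that array read 1.48, and no knockout array reached the wild type range. The second Ovol1 probe differed less between knockouts and wild type. Its difference was -0.79 in the sample channel (adjusted p = 0.142 over all probes) and -0.47 as a log ratio (adjusted p = 0.73). The reference spots of the Ovol1 probe used were dim, at 31.4 to 73.5 net intensity units.

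Tfap2a and Bnc1 showed the smallest differences in the sample channel. Tfap2a was at a log2 sample signal of 7.24 and 7.25 in knockouts with Cdx2 and 7.34 to 7.46 in knockouts, against 7.45 to 7.75 in wild type. Its differences from wild type were -0.35 (95% interval -0.58 to -0.12) with Cdx2 and -0.21 (-0.41 to -0.01) without it, and neither passed. Bnc1 was at 8.20 and 8.17 in knockouts with Cdx2 and 7.93 to 8.44 in knockouts, against 8.34 to 8.66 in wild type. Its differences were -0.31 (95% interval -0.67 to 0.04) and -0.36 (-0.67 to -0.05), and neither passed. As log ratios Tfap2a differed from wild type by -0.38 (adjusted p = 0.137) with Cdx2 and -0.23 (adjusted p = 0.647) without it, and Bnc1 by -0.37 (adjusted p = 0.308) and -0.61 (adjusted p = 0.285). The other Tfap2a probe gave no sample signal well above background on the 9 arrays.

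**Figure D3:**
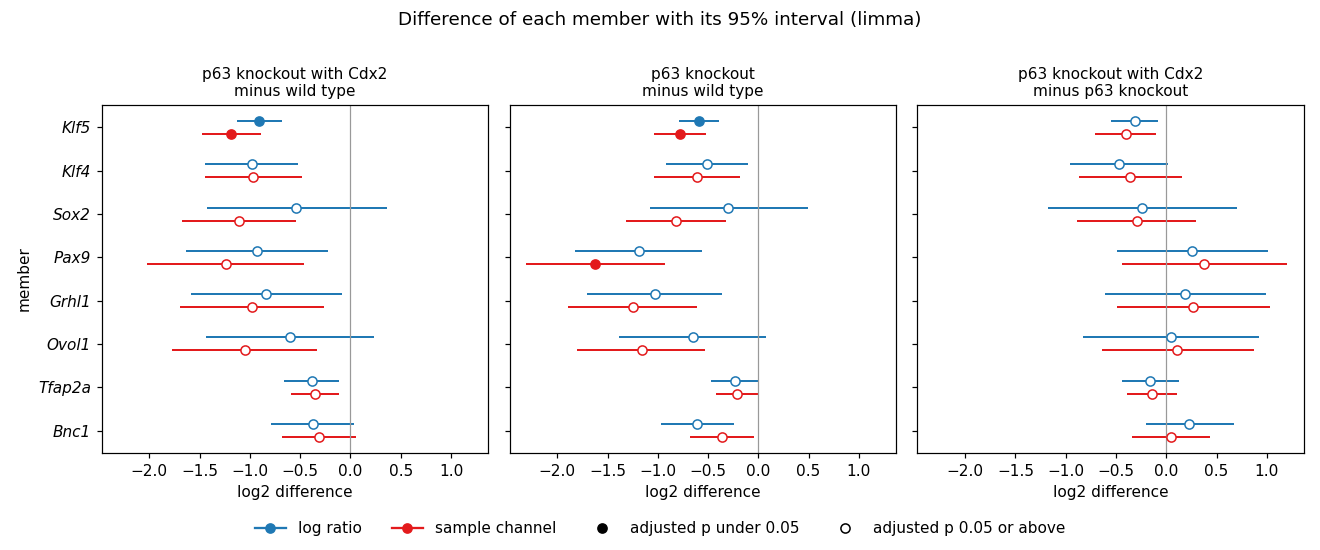
The log2 difference of each member is plotted with its 95% interval for 3 comparisons, with the log ratio and the sample channel as separate points. Filled points passed at an adjusted p under 0.05: Klf5 in both comparisons with wild type, and Pax9 in the sample channel of the knockouts.

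Among the 8 members, 1 (Klf5) fell in knockouts with Cdx2 against wild type in each channel. Of all genes 1.41% passed and 0.971% fell as a log ratio, and 2.46% passed and 1.56% fell as a sample signal. In knockouts without Cdx2, 1 of 8 (Klf5) fell as a log ratio, beside 0.327% of all genes that passed and 0.269% that fell. As a sample signal 2 of 8 (Klf5 and Pax9) fell in knockouts, beside 1.77% that passed and 0.967% that fell. No member rose in these fits.

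At an unadjusted p under 0.05 there were 5 of 8 members as a log ratio and 7 of 8 as a sample signal in knockouts with Cdx2, against 18.1% and 21.0% of all genes. The counts were 5 of 8 and 8 of 8 in knockouts, against 7.79% and 16.0% of all genes. All arrays of the knockouts with Cdx2 lay below all wild type arrays for 5 of 8 members as a log ratio and 8 of 8 as a sample signal, where this held for 13.8% and 14.5% of all genes. For the knockouts it held for 6 of 8 members in each channel, against 4.57% and 8.87% of all genes. As a log ratio 2 of these 6 (Klf4 and Tfap2a) were separated from wild type only in unrounded values. Their nearest arrays had equal values to 2 decimals. The log ratio counts also depend on the background fit of wild type replicate 3. With unflagged spots that array read -2.44 for Bnc1, below replicate 2 of the knockouts (-2.36) and of the knockouts with Cdx2 (-2.38). Bnc1 then overlapped wild type in both groups, while Sox2 and Ovol1 no longer did, nor Grhl1 with Cdx2. The shares of all genes under that fit are not given here. The members' median log2 sample difference was -1.02 with Cdx2 and -0.80 without it, where the median over all genes was 0.01 in both. As log ratios the members' medians were -0.72 and -0.60, against 0 and 0.02 over all genes. Both comparisons share the wild type arrays.

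Between the knockouts labelled with Cdx2 and those without it no member passed. The Cdx2 signal itself did not set these groups apart, as given above. In limma's fit 0 of 8 members passed in either channel, beside 0% of all genes as a log ratio and 0.216% in the sample channel. At an unadjusted p under 0.05 there was 1 member (Klf5) in each channel, against 2587 genes (11.4%) as a log ratio and 17.8% of genes as a sample signal. The authors' deposited log ratios gave 4 genes and no member. The 95% interval of the difference in log2 sample signal ran from -0.70 to -0.11 for Klf5 and from -0.43 to 1.19 for Pax9. Replicate 1 of the knockouts with Cdx2 had a lower log ratio than replicate 2 for 8 of 8 members. The share of all genes for which this held is not given here. For Tfap2a the values were -0.82 and -0.78, and in the sample channel Bnc1 went the other way (8.20 and 8.17). The Krt5 signal (7.39 against 12.01) and Ptprc signal (9.13 against 12.39) of replicate 1 were lower too. Muscle genes went the other way, with Acta1 at 17.24 against 15.62, Myog at 14.15 against 11.98 and Des at 13.15 against 12.19. The part of these cell types in the members' values was not tested.

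The other transcription factors of squamous epithelium were taken from a list of 48, of which 46 were measured. The list was chosen with earlier results of these data known. By sample signal 10 of 46 fell and 0 rose in knockouts with Cdx2 against wild type, and 6 of 46 fell and 0 rose in knockouts against wild type. Of all genes 1.56% and 0.967% fell in these comparisons. The list includes Trp63, the knocked-out gene, which is 1 of the 6. As log ratios 6 fell with Cdx2 and 0 without it, and 0 rose, beside 0.971% and 0.269% of all genes that fell. Between the 2 knockout groups none of the 46 passed in either channel. The list's median log2 sample difference was -0.34 with Cdx2 and -0.12 without it.

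Pitx1, a homeobox factor, averaged a log2 sample signal of 12.97 in knockouts with Cdx2 and 12.76 in knockouts, against 15.21 in wild type, with differences of -2.24 (adjusted p = 0.00352) and -2.45 (adjusted p = 8.4e-04). Zfp750, a zinc finger factor of keratinocyte differentiation, averaged 8.31 in knockouts with Cdx2 and 8.48 in knockouts, against 10.87 in wild type, with differences of -2.56 (adjusted p = 0.00394) and -2.39 (adjusted p = 0.00201). As log ratios Pitx1 differed by -0.25 and -0.30 and Zfp750 by -1.94 and -1.73, and none of these passed. The sample signals of both genes fell by more than their log ratios. The reference signal at these probes was therefore also lower in both knockout groups than in wild type, although the reference RNA was the same on all arrays. The 2 channels are not independent readings there, and the cause was not tested. The differences in sample signal of Fosl2, an AP-1 subunit, were -1.11 with Cdx2 (adjusted p = 0.00717) and -0.76 without it (adjusted p = 0.0198), and those of Tfap2c, the AP-2 gamma gene, -0.81 (adjusted p = 0.0421) and -0.99 (adjusted p = 0.0118). All these genes were lower in both knockout groups than in wild type.

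In knockouts with Cdx2 the homeobox gene Barx2 fell by 1.86 (adjusted p = 0.0124) and the forkhead gene Foxe1 fell by 2.21 (adjusted p = 0.0187) as a sample signal. Elf3, an epithelial ETS factor, fell by 1.65 (adjusted p = 0.0348) and Klf3 fell by 0.75 (adjusted p = 0.0296). In knockouts without Cdx2 these 4 genes differed from wild type in the same direction by -0.84 (Barx2), -1.39 (Foxe1), -0.93 (Elf3) and -0.56 (Klf3), and none passed. The difference between the 2 knockout groups passed for none of them. As log ratios Klf3, Elf3, Foxe1, Barx2 and Fosl2 fell with Cdx2, with differences of -0.66, -1.20, -1.53, -1.10 and -1.12 in that order.

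**Figure D4:**
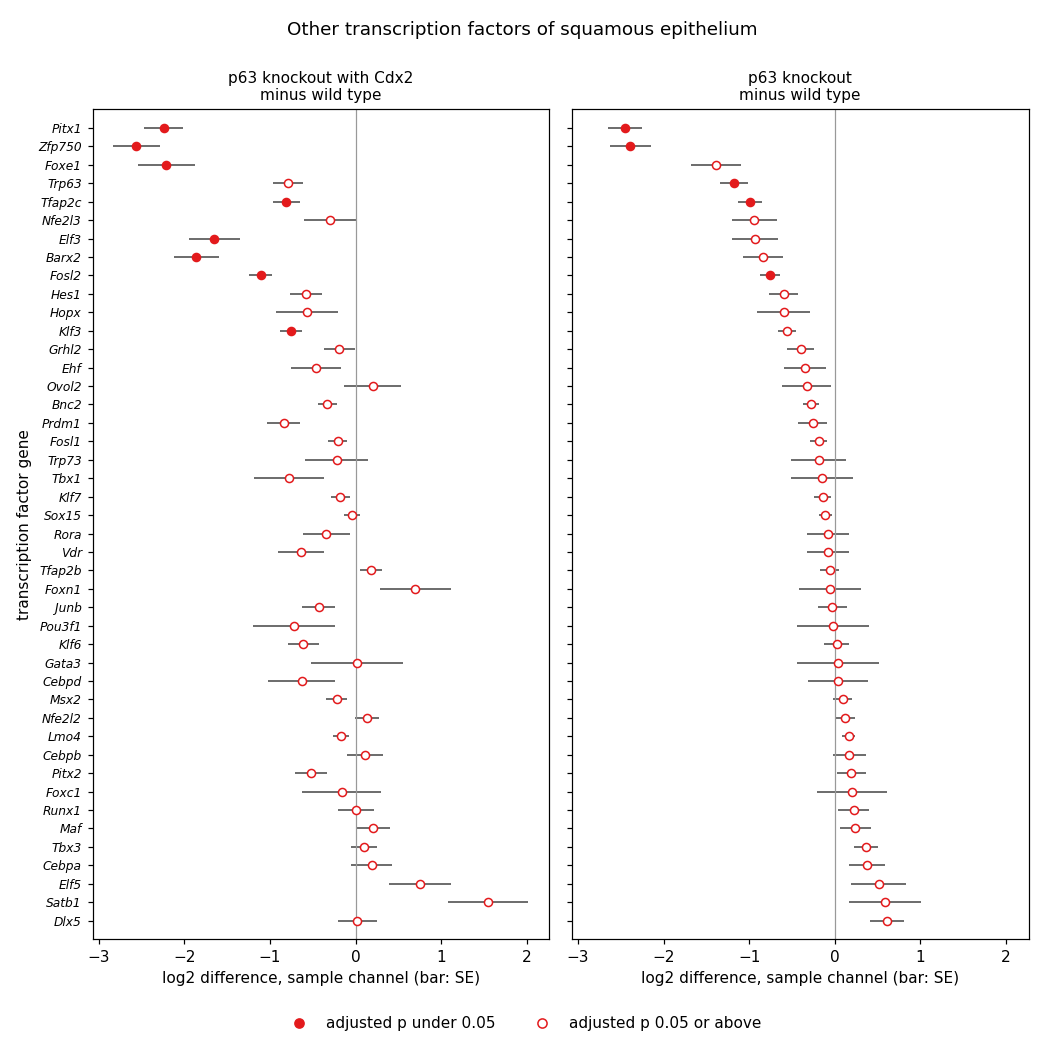
The log2 difference in the sample channel is plotted with its SE for 44 of the 46 other transcription factors, for the knockouts with Cdx2 (left) and the knockouts (right), each minus wild type, with filled points for an adjusted p under 0.05. Pitx1, at -2.24 and -2.45, and Zfp750, at -2.56 and -2.39, lie farthest to the left.

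A list of 33 keratin, envelope and junction genes of squamous cells held 30 measured genes. Of these, 21 fell in knockouts with Cdx2 and 21 in knockouts as a sample signal, each against wild type, and none rose. Of all genes 1.56% and 0.967% fell as a sample signal. As log ratios 17 and 14 of 30 fell, beside 0.971% and 0.269% of all genes. This list, too, was chosen with earlier results of these data known. The list's median log2 sample difference was -2.58 with Cdx2 and -2.72 without it. Krt14, a basal keratin, had differences of -3.58 with Cdx2 (adjusted p = 1.5e-05) and -3.37 without it (adjusted p = 1.2e-05), and Krt5 of -5.52 (adjusted p = 0.0395) and -6.57 (adjusted p = 0.0118). The suprabasal keratin Krt4 differed by -4.08 with Cdx2 (adjusted p = 3.3e-05) and -3.82 without it (adjusted p = 2.3e-05), and its partner Krt13 by -3.62 (adjusted p = 0.00136) and -2.93 (adjusted p = 0.00146). As log ratios the differences were smaller. They were -2.49 (adjusted p = 2.7e-04) and -2.22 (adjusted p = 2.4e-04) for Krt14, -1.09 (adjusted p = 0.00737) and -0.94 (adjusted p = 0.00803) for Krt4, and -1.46 (adjusted p = 0.0206) and -0.89 (adjusted p = 0.144) for Krt13, which did not pass without Cdx2. Those of Krt5 were -1.55 and -1.48 and did not pass in either comparison (adjusted p = 0.179 and 0.435). At the probes of these 4 keratins, too, the reference signal was therefore lower in both knockout groups than in wild type. The cause was not tested.

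The genes whose log ratios were most alike over the 9 arrays were taken among 19388 genes well above background on all arrays, as a description. For Klf5 these were Aqp3, a water and glycerol channel (Pearson r = 0.998), and Upk1b, a uroplakin (r = 0.989). They were Yipf1 (r = 0.984) and Coro1b (r = 0.978) for Klf4, Trpc4 (r = 0.983) and Trpv3 (r = 0.976) for Sox2, and Ikzf2 (r = 0.967) and Mab21l3 (r = 0.955) for Pax9. For Grhl1 they were Dsp, the desmoplakin gene (r = 0.954), and Chmp2b (r = 0.946), and for Ovol1 Pof1b (r = 0.964) was first. The leading match was an unnamed transcript for Tfap2a (r = 0.967) and for Bnc1 (r = 0.965). All these values share the 3 slides, the reference RNA and the background fit of wild type replicate 3.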

How the data were processed

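Each deposited file holds spot intensities and local background intensities of both channels, written by Agilent Feature Extraction 10.7.3.1 per the file headers, while the submitters' processing notes name version 9.1. The files also hold the scanner software's own log10 ratio of the processed channels, as deposited. The value table holds the authors' log2 ratios, which correlated with it, turned to log2, at r of at least 0.9999 on each array. The authors' centring is not given in the sources used here, and their column medians lay between -0.213 and -0.0281.

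Spots flagged as outliers themselves (119 to 171 per array) were left out, and spots with only a flagged local background were kept. Background was corrected by normexp with an offset of 50 fitted on all spots, ratios were normalized by loess within arrays with controls at weight 0, and the channels by Aquantile. Of 41174 probes, 33752 whose sample signal was well above background on at least 2 arrays were kept, and the brightest kept probe stood for its gene. An array had 30027 to 33231 probes well above background, with median sample intensities of 309 to 472 units, and the number of arrays limits the precision. Names came from RefSeq (26918 probes by accession, 5899 by symbol or synonym, 8357 as in the file), and probe coordinates are mm9.

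The test was limma (version 3.58.1, R 4.3.3) in 1 model of all genes over 9 arrays, with Benjamini-Hochberg adjustment over all genes at 0.05, and the fit was tested on simulated data. A p-value measures the spread between these arrays only. The named genes are all members, listed factors with the lowest p, Trp63, 4 keratins and the genes most alike. Of the listed factors 2 are counted and not reported singly here. The members, lists and rules were chosen with earlier results of these data known.

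Other background corrections, normalizations, filters, groups of arrays and prior settings were tried. A further 2 versions of the background step were added after the members' values had been seen, because of wild type replicate 3. Both fit normexp on spots without a flag. The first also leaves out spots over 20 units dimmer than their background, and the second leaves out every flagged spot. During the work the first of them was for a time taken as the basis of the report. The fit on all spots was restored because it is the one written in the design, and the other raises the counts. Tfap2a, named by accession, the fit of single probes and the reference channel were also added after the data were seen. Arrays with the same replicate number were not treated as pairs in the main fit.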

Additional observations from a re-analysis of the deposited data

Results flagged for a closer look

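In 1 of 16 wild type groups of 4 arrays tested, 1 array stood apart from the rest by Dixon's criterion: the Bnc1 log2 ratio of wild type replicate 3 was -1.80, with a gap of 0.858 of the group's range. Chance flags about 1 in 20 such groups. With the background fitted on unflagged spots that array read -2.44.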

How the results depend on the processing

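No member call was reversed. As log ratios, the genes called in knockouts against wild type (74) came to 133 with the scanner software's processed signals and with the authors' table, 115 with only the 2 groups compared, 184 with normexp on unflagged spots and 168 with all flagged spots left out, and the members called (1) to 2 with unflagged spots and 0 with median centring, the mean of a gene's probes, the trend and robust prior or all flagged spots left out. Of the 74 genes 71 were among the 184. In knockouts with Cdx2 against knockouts (0 genes) there were 4 with processed signals and with the authors' table, and 1 with the trend and robust prior and with flagged spots left out. In knockouts with Cdx2 against wild type (319 genes, 1 member) there were 163 genes with median centring, 50 with only the 2 groups, 541 with the trend and robust prior, 805 with unflagged spots and 729 with flagged spots left out, and the members came to 0 with the mean of probes, 2 with the prior, 3 with unflagged spots and 2 with flagged spots left out. By sample signal, knockouts with Cdx2 against knockouts gave 85 genes without the filter and 0 with only the 2 groups, and against wild type 281 with only the 2 groups. Members came to 2 with quantile normalization and 3 with unflagged spots there. Leaving out 1 array gave 21 to 121, 0 to 36 and 58 to 370 genes as log ratios and 180 to 466, 6 to 154 and 172 to 690 in the sample channel, for knockouts against wild type, knockouts with Cdx2 against knockouts and against wild type, with 0 to 1, 0 and 1 to 2 members as log ratios and 0 to 2, 0 and 1 to 2 in the sample channel. Where 1 group is left with 1 array, it is assumed to vary like the others.

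With the replicate number as a block, 9, 0 and 8 genes passed as log ratios and 72, 0 and 36 in the sample channel, with 0 members in each. Arrays of the same number correlated in their deviations from the group means at -0.139 to 0.209, and arrays of different numbers at -0.209 to 0.221. In a group of 2 arrays the deviations mirror each other. These values therefore cannot settle whether the numbers pair the arrays.

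The sign turned for members without a call in knockouts with Cdx2 against knockouts only. As log ratios Ovol1 was -0.06 with processed signals and the authors' table, -0.05 with the mean of probes, -0.14 with the replicate block, and -0.04 without knockout replicate 1, with a range of -0.29 to 0.38 when 1 array was left out. Klf5 was 0.06 with the mean of probes. Leaving out 1 array gave -0.26 to 0.79 for Pax9 and -0.21 to 0.60 for Grhl1, which was -0.02 without knockout replicate 1. By sample signal these ranges were -0.59 to 0 for Sox2, -0.23 to 0.99 for Pax9, -0.15 to 0.68 for Grhl1 (0 without knockout replicate 1), -0.06 to 0.20 for Bnc1 and -0.25 to 0.48 for Ovol1 (-0.03 without knockout replicate 1). The cause of these changes was not tested. Of 860 values of single members under an alternative, 801 kept their direction and side of the threshold, 25 lost a call, 17 gained one and 17 changed sign.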
